A study of Mus musculus with 8 samples.

Results

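Sterol synthesis, sensing, transport and efflux were followed in inguinal white adipose tissue, a subcutaneous fat pad near the hind leg, as 31 genes of 14730 tested. The genes were chosen by name, with earlier results of these data known. They were 19 enzymes of the route from acetyl-CoA to cholesterol, with Ggps1 on a side branch, and 5 genes that sense sterols and set the rate of synthesis. The others were 4 genes of uptake and transport inside the cell and 3 genes of efflux and storage. All 31 were read by at least 1 probe well above background on all 8 arrays. Senp2-aKO mice carried Senp2flox/flox together with Adipoq Cre, a recombinase driven by the adiponectin gene and so active in adipocytes, and control mice carried Senp2flox/flox without it. Both groups were 8 weeks old when a diet with 58 kcal% fat began, ate it for 12 weeks and were kept at 22 to 24 °C, with 4 samples in each group. The protease encoded by Senp2 takes SUMO, a small protein tag, off other proteins. Whole tissue was used, so that fewer cells of a type and less RNA per cell cannot be told apart.

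Cholesterol is built from acetyl-CoA through mevalonate, prenyl phosphates, squalene and lanosterol. The genes of the pathway share transcription factors, the SREBPs, which sit in the endoplasmic reticulum bound to SCAP. While sterols are plentiful, the INSIG proteins hold SCAP there, and when sterols run low SCAP carries the SREBPs to the Golgi, where they are cut and released to the nucleus. There they act with NF-Y, which binds the letters CCAAT. Cholesterol in excess activates the LXR receptors, which raise the efflux pumps Abca1 and Abcg1 and the ubiquitin ligase Mylip, which marks lipoprotein receptors for degradation. Adipocytes hold a large store of free cholesterol, much of it at the surface of the lipid droplet.

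The enzyme promoters are shown first, because many enzymes were lower and the pathway is known for its shared promoter elements. RefSeq windows of 300 bases (GRCm38.p6, from 250 bases before the annotated start of the gene to 50 after it) were matched by symbol for 25 of the 31 genes. Fdps, Fdft1, Sqle, Stard4, Npc1 and Abcg1 had no entry. In the sequences below, capitals mark CCAAT on either strand (read as ATTGG on the other) and the core of the sterol response element, TCACNCCAC, on either strand. They are Hmgcs1, the single window of the set with the sterol core, and Mvk and Msmo1, which fell in the knockout. Also shown are Insig1, the sensing gene with the lowest fold change between the genotypes, and Acat2, an enzyme without CCAAT in its window.
Hmgcs1, chr13:119690101-119690400, plus strand: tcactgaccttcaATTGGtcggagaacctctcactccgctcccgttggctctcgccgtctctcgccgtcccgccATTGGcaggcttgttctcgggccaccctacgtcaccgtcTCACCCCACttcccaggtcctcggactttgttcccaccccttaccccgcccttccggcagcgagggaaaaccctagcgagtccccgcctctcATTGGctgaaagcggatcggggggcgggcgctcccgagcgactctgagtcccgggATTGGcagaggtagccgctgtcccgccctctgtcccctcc
Mvk, chr5:114444019-114444318, plus strand: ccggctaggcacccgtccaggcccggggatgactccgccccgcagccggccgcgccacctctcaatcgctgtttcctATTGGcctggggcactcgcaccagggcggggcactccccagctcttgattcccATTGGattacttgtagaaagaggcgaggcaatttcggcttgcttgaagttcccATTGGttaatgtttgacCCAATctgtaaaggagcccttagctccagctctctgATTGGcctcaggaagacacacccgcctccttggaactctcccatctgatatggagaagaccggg
Msmo1, chr8:64733529-64733828, minus strand: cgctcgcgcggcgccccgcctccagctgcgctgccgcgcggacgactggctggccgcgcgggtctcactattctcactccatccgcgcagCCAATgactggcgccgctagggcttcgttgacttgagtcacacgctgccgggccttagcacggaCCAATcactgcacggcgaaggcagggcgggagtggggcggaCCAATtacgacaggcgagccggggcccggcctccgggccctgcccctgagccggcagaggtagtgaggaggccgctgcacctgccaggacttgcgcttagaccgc
Insig1, chr5:28071162-28071461, plus strand: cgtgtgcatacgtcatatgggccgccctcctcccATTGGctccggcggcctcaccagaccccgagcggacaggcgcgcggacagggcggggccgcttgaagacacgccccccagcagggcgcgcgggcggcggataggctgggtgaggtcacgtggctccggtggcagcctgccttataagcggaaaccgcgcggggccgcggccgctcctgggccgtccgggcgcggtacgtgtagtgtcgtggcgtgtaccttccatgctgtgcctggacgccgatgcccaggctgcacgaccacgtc
Acat2, chr17:12960676-12960975, minus strand: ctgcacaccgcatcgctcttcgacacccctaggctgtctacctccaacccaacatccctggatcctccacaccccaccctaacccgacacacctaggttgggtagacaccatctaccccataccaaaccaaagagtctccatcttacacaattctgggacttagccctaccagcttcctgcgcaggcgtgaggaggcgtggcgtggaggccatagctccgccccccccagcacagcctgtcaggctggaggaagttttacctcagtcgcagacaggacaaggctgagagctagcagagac

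Of 16 enzyme genes with a window, 15 held CCAAT on at least one strand in at least 1 window, which is 93.8% of them against 41.1% of 27025 genes with a RefSeq window and 42.2% of the 11675 that were tested on these arrays. The window of Mvk held 5 such matches, that of Hmgcs1 4 and that of Msmo1 3. Among the other members with a window, 4 of 5 sensing genes, Npc2, Mylip and Soat1 held it too. The sterol core was found in 1 enzyme window, that of Hmgcs1, at 137 to 129 bases before the start, which is 5.26% of the 19 enzyme windows against 1.24% of all 32851 windows. CACGTG, the E-box, was found in 18.8% of the enzyme genes (3 of 16: Dhcr7, Hsd17b7 and Sc5d). The share was 8.09% over all genes with a window and 11% over those tested on these arrays. CCAAT was present in all 6 genes with a window that fell and in 16 of 19 that did not pass. These matches are letters in a window, and binding was not measured.

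**Figure D1:**
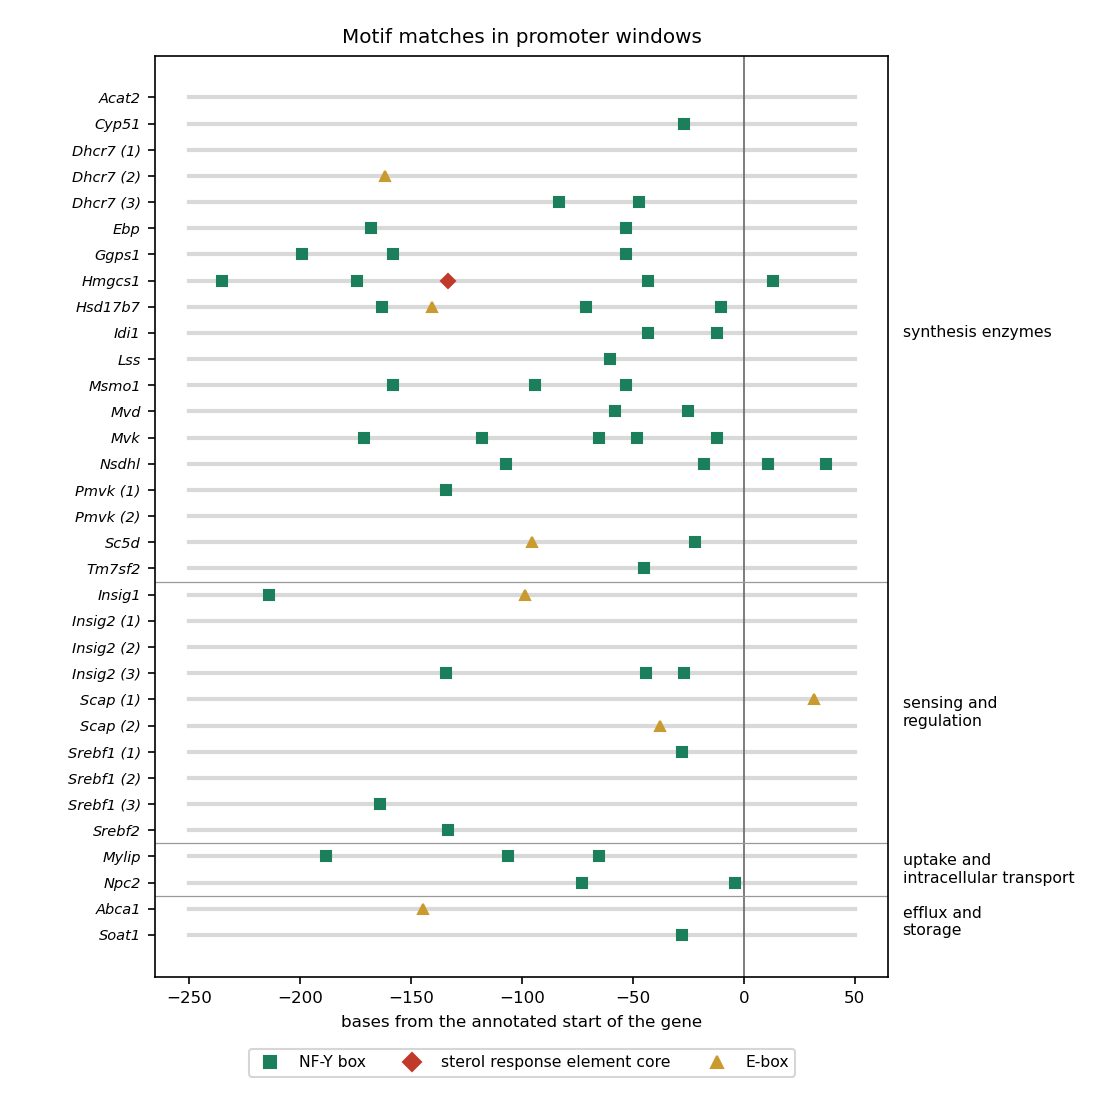
Matches to CCAAT (NF-Y box), TCACNCCAC (sterol response element core) and CACGTG (E-box) in the promoter windows of 25 sterol genes, by distance in bases from the annotated start of the gene. Each grey line is 1 window, and numbers in parentheses tell apart the windows of a gene with several starts. All enzymes shown except Acat2 have a CCAAT match, and the single sterol core lies in Hmgcs1.

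All 8 arrays lay on 1 slide, with Senp2-aKO samples along one row and controls along another, and genotype cannot be told apart from slide row. No spot was saturated. The 75th percentile of the signal lay between 324 and 382 on the Senp2-aKO arrays and between 408 and 446 on the control arrays, and every level below is a log2 signal relative to that percentile of its own array. Senp2 itself was read at 2.19, 2.12, 2.20 and 2.22 in Senp2-aKO samples and at 2.46, 2.46, 2.52 and 2.37 in controls, 82.8% of control (95% interval 73.3 to 93.6), and missed the threshold (limma adjusted p = 0.0507). Adipocyte markers were high in both groups, with list means of 7.49 to 7.81 in Senp2-aKO samples and 7.16 to 7.59 in controls, and 0 of 8 passed the limma test (at an unadjusted p under 0.05, 3 were higher and 1 was lower). Transcripts of other tissues differed on the same arrays. All 15 skeletal muscle markers rose, with list means of 3.92 to 5.55 in Senp2-aKO samples against -1.13 to 1.82 in controls. Of 8 mammary epithelial markers 5 were measured and 3 rose, while no kept probe was named for Krt8, Epcam and Csn3. The epithelial list means were -2.59 to -0.68 in Senp2-aKO samples against -3.58 to -3.03 in controls. The B lymphocyte mean was 1.85 in aKO 2, against -2.81 to -2.43 in the other Senp2-aKO samples and -2.99 to -0.46 in controls, and the T lymphocyte mean was 2.90 in aKO 2, against -1.14 to -0.22 in the other Senp2-aKO samples and -0.48 to 0.51 in controls. The part of muscle, epithelium and lymphocytes in the sterol results was not tested beyond the fits given with them.

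Enzymes of cholesterol synthesis were lower in Senp2-aKO fat, while the sensing, transport and efflux genes were mostly near their control level. Of 19 enzymes 7 fell and 0 rose at a limma adjusted p under 0.05 over all genes, where 7.12% of all 14730 genes fell and 7.29% rose (14.4% in either direction). Log2 fold changes (Senp2-aKO minus control) of the 19 ran from -1.41 to 0.18 with a median of -0.89, against a median of -0.02 over all genes tested, and 16 of the 19 were negative, against 52.7% of all genes. Of the 12 other members 1 fell and 0 rose, with a median of -0.06. The mean log2 fold change was -0.72 over the enzymes and -0.20 over the other members, a difference of -0.52 that was -0.33 without aKO 2. In 13 of the 19 enzymes all 4 Senp2-aKO samples lay below all 4 controls, against 15.1% of all genes, and in 1, Ggps1, they lay above, against 11.2%.

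**Figure D2:**
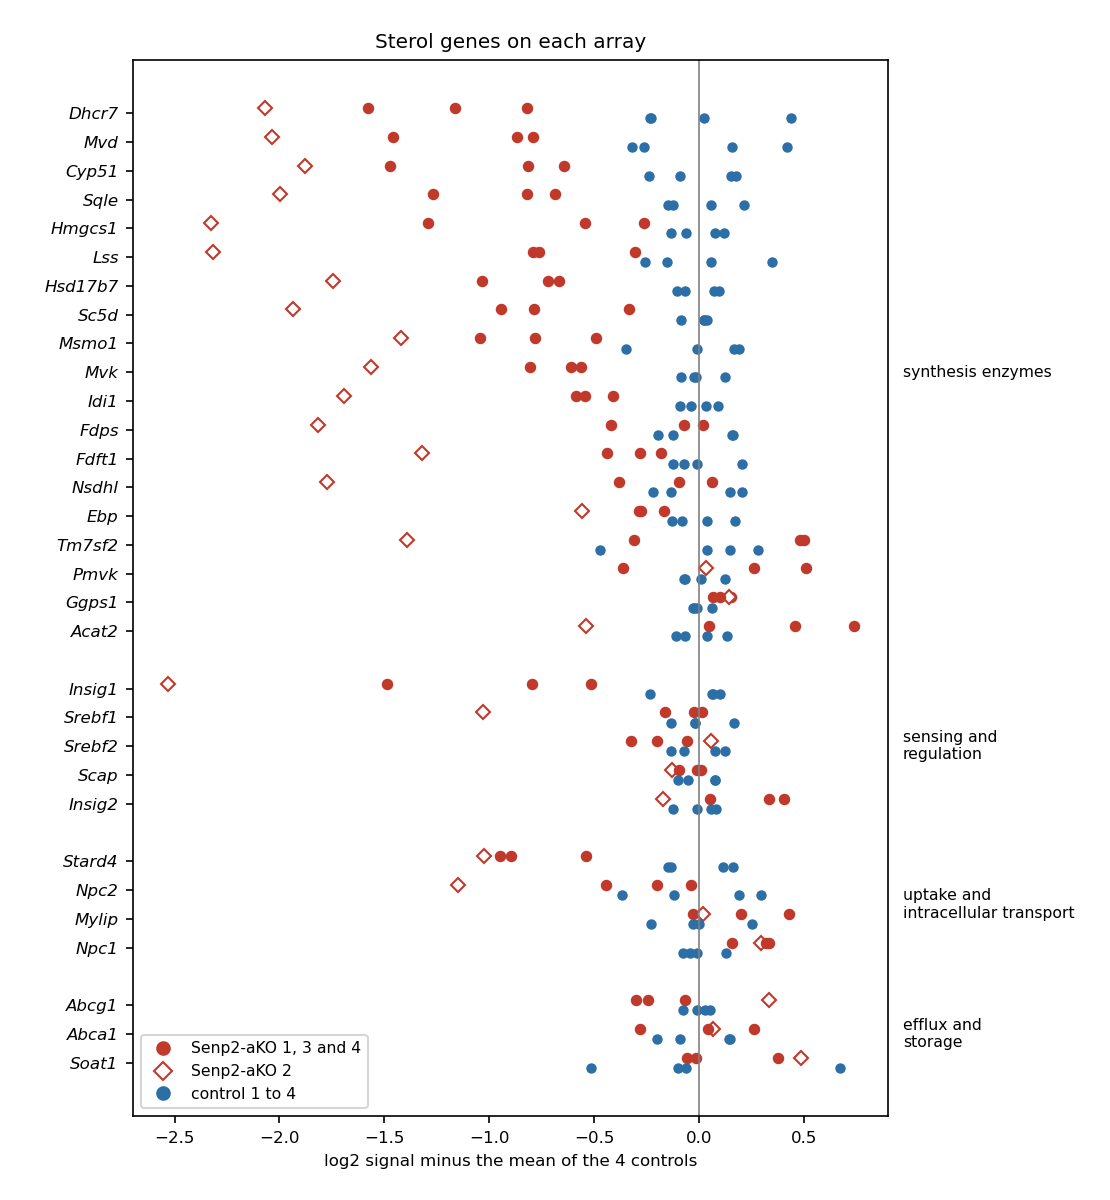
Level of each of the 31 genes on each array, as log2 signal minus the mean of the 4 controls, with Senp2-aKO samples in red and controls in blue. The open diamond, aKO 2, is the lowest of the 8 arrays in 17 of 19 enzymes, and the other Senp2-aKO samples also lie left of all controls in most of them.

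The early steps, from acetyl-CoA to prenyl phosphates, were mixed. Of 8 enzymes 2 fell, Mvk and Mvd. Mvd, which makes isopentenyl diphosphate by removing carbon dioxide from mevalonate diphosphate, was at -0.41, -0.98, 0.19 and 0.26 in Senp2-aKO samples and at 1.21, 0.74, 1.47 and 0.79 in controls. Its 2 ranges did not meet, and it fell 2.44-fold (limma adjusted p = 0.0271) with a 95% interval of 1.52 to 3.93. Mvk, which phosphorylates mevalonate, was at 4.02, 3.06, 4.06 and 3.82 in Senp2-aKO samples against 4.61, 4.75, 4.60 and 4.54 in controls, with aKO 2 far below the other Senp2-aKO samples. It fell 1.85-fold (95% interval 1.31 to 2.60, limma adjusted p = 0.0311), and its second probe also passed over all kept probes (log2 fold change -0.85, SE 0.20, adjusted p = 0.0340).

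Hmgcs1, which condenses acetyl-CoA with acetoacetyl-CoA ahead of the mevalonate step, had its Senp2-aKO samples below all controls but wide apart, at 5.17, 4.14, 6.20 and 5.92 against 6.58, 6.33, 6.54 and 6.40 in controls. With a log2 fold change of -1.11 (SE 0.40) it did not pass (limma adjusted p = 0.103). The isomerase gene Idi1 had a similar layout, at 2.75, 1.46, 2.57 and 2.61 in Senp2-aKO samples and 3.06, 3.12, 3.25 and 3.19 in controls, and did not pass either (log2 fold change -0.81, SE 0.27, limma adjusted p = 0.0789). Without aKO 2 its fold change was -0.51 (SE 0.08) and it passed (adjusted p = 0.0123). Fdps, which joins the prenyl units into farnesyl diphosphate, was at 3.31 in aKO 2 and at 4.71 to 5.14 in the other Senp2-aKO samples, against 4.93 to 5.29 in controls (log2 fold change -0.57, SE 0.38), so that its difference rested largely on that sample and was -0.16 (SE 0.15) without it.

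The other 3 enzymes of these steps had fold changes just above 0 that did not pass. Acat2, the cytosolic thiolase that makes acetoacetyl-CoA, had a log2 fold change of 0.18 (95% interval -0.40 to 0.76), and Pmvk, the kinase gene between Mvk and Mvd, one of 0.11 (95% interval -0.30 to 0.52). Ggps1, which draws farnesyl diphosphate off into geranylgeranyl diphosphate for the tagging of proteins, was at 2.10, 2.09, 2.05 and 2.02 in Senp2-aKO samples and at 2.01, 1.92, 1.93 and 1.94 in controls. Its groups did not overlap, yet the difference was small and did not pass (log2 fold change 0.12, 95% interval -0.05 to 0.29, limma adjusted p = 0.317). Second probes gave -0.04 (SE 0.10) for Ggps1 and 0.05 (SE 0.20) for Pmvk.

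From squalene to lanosterol, all 3 enzymes had every Senp2-aKO sample below every control, and 1 fell. Sqle, which adds oxygen to squalene and is known as a rate-setting step, was at 1.26, 0.53, 1.85 and 1.71 in Senp2-aKO samples and at 2.41, 2.74, 2.59 and 2.39 in controls. It fell 2.29-fold (95% interval 1.48 to 3.53, limma adjusted p = 0.0263). Lss, which closes the rings to lanosterol, had a log2 fold change of -1.04 (SE 0.40, adjusted p = 0.115), and Fdft1, the squalene synthase gene, one of -0.56 (SE 0.24, adjusted p = 0.155). Its second probe had a fold change of 0.12 (SE 0.19), so that the 2 probes of Fdft1 differed in sign.

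The late steps, from lanosterol to cholesterol, held 4 of the 7 falls, and all 8 enzymes had negative log2 fold changes. Dhcr7, the last reductase, was at -1.76, -2.25, -0.997 and -1.34 in Senp2-aKO samples and at -0.15, -0.40, 0.26 and -0.41 in controls, the lowest fold change of the 31 genes (-1.41, SE 0.28, limma adjusted p = 0.0169). Cyp51, which demethylates lanosterol, was at -2.63, -3.04, -1.80 and -1.97 in Senp2-aKO samples against -0.98, -1.39, -1.004 and -1.25 in controls (-1.20, SE 0.27, adjusted p = 0.0246). In both genes aKO 2 was lowest, aKO 1 next, and no Senp2-aKO sample reached the controls. The size of both falls depended on the background correction. With normexp the log2 fold changes were -1.02 (SE 0.20) for Dhcr7 and -0.75 (SE 0.16) for Cyp51. Both still passed, but the lowest of the 31 genes was then Insig1 at -1.32. Msmo1 and Hsd17b7 act in turn to strip methyl groups from the sterol ring. Msmo1 was at 2.11, 1.73, 2.66 and 2.37 in Senp2-aKO samples, against 3.32, 3.14, 3.34 and 2.80 in controls, and fell 1.91-fold (95% interval 1.36 to 2.68, limma adjusted p = 0.0257). Hsd17b7 was at -0.9998, -1.71, -0.63 and -0.69 in Senp2-aKO samples, against -0.07, -0.03, 0.11 and 0.13 in controls, and fell 2.06-fold (95% interval 1.43 to 2.95, limma adjusted p = 0.0227). A second Hsd17b7 probe passed as well over all kept probes, at a limma adjusted p of 0.0114 (log2 fold change -1.14, SE 0.18).

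The other 4 late enzymes did not pass. Sc5d, a desaturase, came nearest, at 3.41, 2.42, 4.02 and 3.57 in Senp2-aKO samples and at 4.38, 4.38, 4.40 and 4.27 in controls (log2 fold change -0.9998, SE 0.30, limma adjusted p = 0.0594). Its groups did not overlap, and it passed without aKO 2 (adjusted p = 0.0231). Ebp, a sterol isomerase, showed a small difference with groups that did not overlap (-0.32, SE 0.12, adjusted p = 0.0970). Nsdhl, the dehydrogenase between Msmo1 and Hsd17b7, was at 0.17 in aKO 2 and at 1.57 to 2.01 in the other Senp2-aKO samples, against 1.73 to 2.15 in controls. The reductase gene Tm7sf2 was at 1.26 in aKO 2 and at 2.34 to 3.15 in the other 3, against 2.18 to 2.93 in controls. The fold changes of both (-0.55, SE 0.38, and -0.18, SE 0.41) had intervals that spanned 0, and that of Tm7sf2 was 0.22 (SE 0.26) without aKO 2. Their second probes gave -0.57 (SE 0.38) for Nsdhl and -0.11 (SE 0.41) for Tm7sf2.

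**Figure D3:**
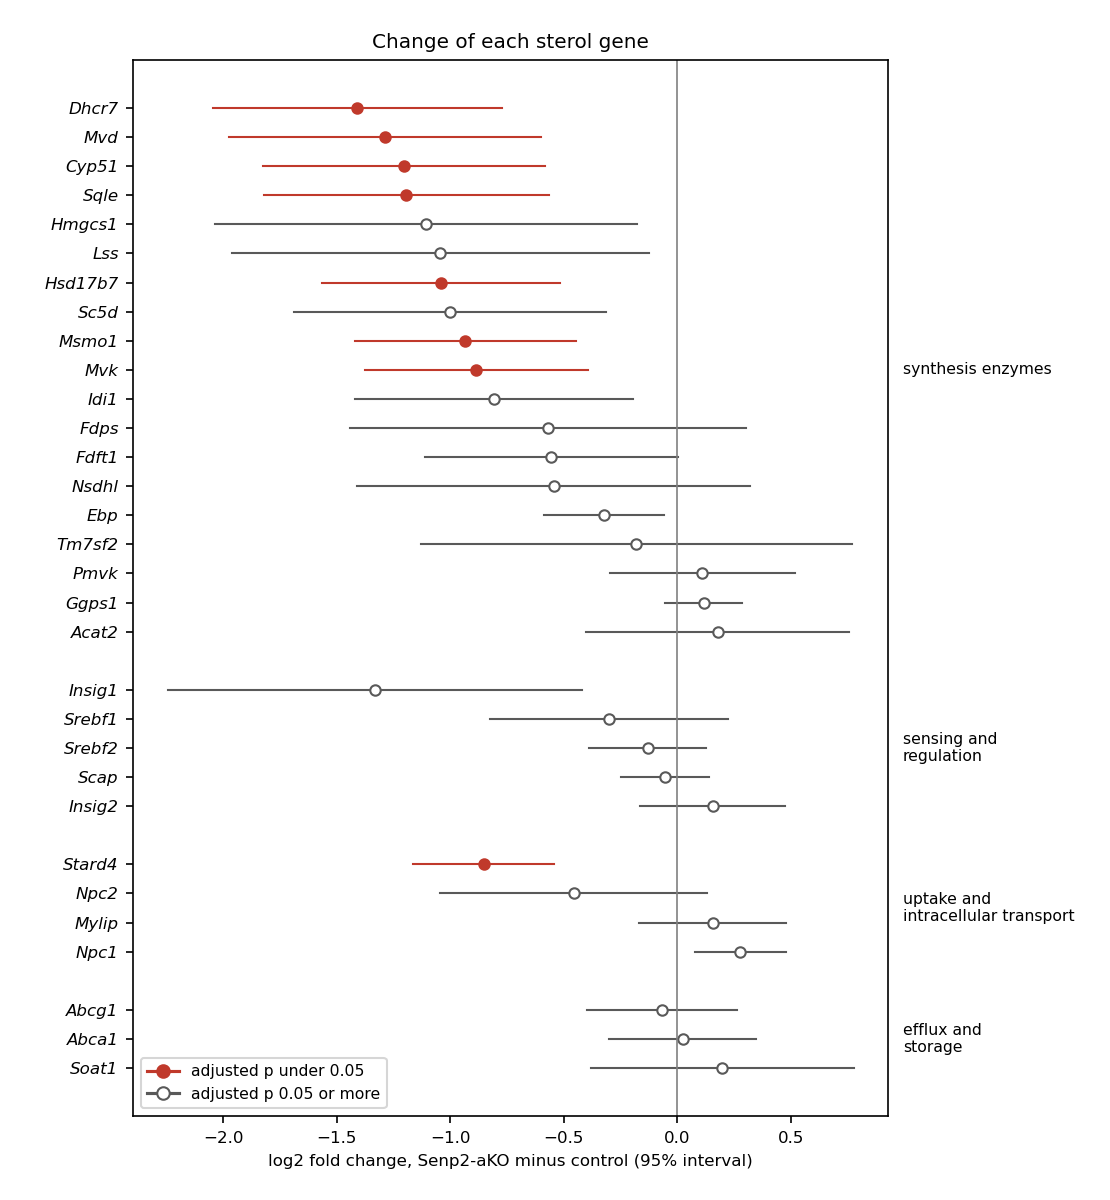
Log2 fold change of each sterol gene, Senp2-aKO minus control, with its 95% interval from limma and 4 arrays per group. Filled red points passed at an adjusted p under 0.05 over all genes: 7 enzymes, from Dhcr7 at -1.41 to Mvk at -0.89, and Stard4 at -0.85.

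In most of the sterol genes the Senp2-aKO samples varied more among themselves than the controls did. The SD was larger among Senp2-aKO samples in 18 of 19 enzymes, with a median SD of 0.58 in Senp2-aKO samples and 0.14 in controls. Among the 5 sensing genes the median SD was 0.27 in Senp2-aKO samples and 0.12 in controls. The SD was also larger among Senp2-aKO samples in 4 of these 5, in 3 of 4 uptake genes and in 2 of 3 efflux genes. The share over all genes was not counted, so a wider spread cannot be called particular to the enzymes. The sample aKO 2 had the lowest level of the 8 arrays in 17 enzymes and in 6 of the 12 other members, and this too was not counted over all genes. Its enzyme mean was 1.18, against 2.07 in aKO 1, 2.22 in aKO 3, 2.32 in aKO 4 and 2.58 to 2.80 in controls. This was also the array with the highest lymphocyte means. The other 3 Senp2-aKO samples still lay below all 4 controls. Without aKO 2 the median log2 fold change of the enzymes was -0.62 in place of -0.89, and 9 of 19 fell, including all 7 named above. Calls over all genes changed too. With 1 array left out they ran from 714 to 2828, against 2123 with all 8 arrays. When the B lymphocyte mean was added to the fit, 10 fell, and 3197 of all genes passed in place of 2123.

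The number of calls changed with the arrays used. Without control 1, 0 of 19 enzymes passed in limma, although 10 had an unadjusted p under 0.05 and were lower, with a median log2 fold change of -0.88, and the number of genes called over the whole array was 714 in place of 2123. The count was 3 without control 2, 1 without control 3, 2 without control 4 or aKO 1, 5 without aKO 4 and 9 without aKO 3. Over the 8 omissions the number of genes called on the whole array ran from 714 to 2828. Dhcr7 passed in 7 of 8 omissions, with an adjusted p of 0.0528 without control 1. With the skeletal muscle mean as a covariate, 0 enzymes and 0 of all 14730 genes passed in limma (638 genes had an unadjusted p under 0.05 and were lower, 885 were higher), while 16 enzymes were negative and their median was -0.87. With the epithelial mean as a covariate, chosen after its values were seen, 10 enzymes were negative, 0 were lower by that unadjusted measure, their median was -0.20 and 0 of all genes passed (by unadjusted p under 0.05, 707 were lower and 948 higher). The epithelial mean was -0.84 in aKO 1, -0.68 in aKO 2, -1.09 in aKO 3 and -2.59 in aKO 4, highest where the enzyme mean was lowest and lowest where it was highest among these 4 samples. In every Senp2-aKO sample both means exceeded those of all controls, so that these covariates largely follow genotype.

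Among the 5 genes that sense sterols and drive the pathway, 0 passed in limma, and at an unadjusted p under 0.05 there was 1 lower gene. This was Insig1, an SREBP target whose product holds SCAP back. It was at 2.04, 0.997, 3.02 and 2.74 in Senp2-aKO samples and at 3.59, 3.60, 3.63 and 3.30 in controls, and the 4 Senp2-aKO samples stood in the same order as in Dhcr7. Its log2 fold change of -1.33 (SE 0.40) missed the threshold (limma adjusted p = 0.0587), and it passed without aKO 2 (-0.93, SE 0.23, adjusted p = 0.0324) and under quantile normalisation (adjusted p = 0.0487). With the epithelial mean as a covariate its fold change was -0.20 (SE 0.72, limma adjusted p = 0.940). Insig2, which does the same work but is not known as an SREBP target, had a log2 fold change of 0.16 (95% interval -0.16 to 0.48), and the 2 fold changes were 1.49 apart. Its second probe gave 0.10 (SE 0.14).

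The transcripts of the transcription factors and their escort were near control. Srebf2, whose product is the SREBP tied most closely to cholesterol synthesis, was at -1.33, -0.95, -1.07 and -1.21 in Senp2-aKO samples and at -0.93, -0.89, -1.14 and -1.08 in controls (log2 fold change -0.13, 95% interval -0.39 to 0.13). Its second probe gave -0.41 (SE 0.31) and did not pass. Srebf1, whose product favours fatty acid synthesis, was at 1.41, 0.54, 1.59 and 1.55 in Senp2-aKO samples against 1.74, 1.44, 1.55 and 1.56 in controls, with aKO 2 alone standing low. Its fold change was -0.30 (95% interval -0.83 to 0.22) and -0.06 (SE 0.09) without aKO 2. For Scap the interval was narrow, -0.25 to 0.14 around -0.05. The arrays read transcripts and not the cutting of SREBP proteins.

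Stard4 was the single gene outside the enzymes that fell. It encodes a carrier that moves cholesterol between membranes through the cytosol and is a known SREBP target. Its levels were -0.63, -0.75, -0.27 and -0.68 in Senp2-aKO samples and 0.43, 0.12, 0.39 and 0.14 in controls, 55.4% of control (95% interval 44.7 to 68.7, limma adjusted p = 0.00925). The SD among Senp2-aKO samples was 0.22, below the median of the enzymes, and aKO 2 was not set apart. It passed without any one of the 8 arrays (adjusted p from 0.00520 to 0.0359) and with the replicate block (0.0210). Its log2 fold change of -0.85 was -1.02 (SE 0.33) with the muscle mean as a covariate and -0.83 (SE 0.29) with the epithelial mean, and it then did not pass (limma adjusted p = 0.408 and 0.379).

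The pair that releases cholesterol from lysosomes differed in sign. Npc1, the membrane transporter, was at -0.29, -0.16, -0.12 and -0.13 in Senp2-aKO samples, above all controls at -0.46, -0.50, -0.32 and -0.53, with a small log2 fold change that did not pass (0.28, 95% interval 0.08 to 0.48, limma adjusted p = 0.0681). Npc2, its soluble partner, was at 6.48, 5.53, 6.24 and 6.64 in Senp2-aKO samples against 6.87, 6.31, 6.98 and 6.56 in controls, and the groups overlapped (-0.46, 95% interval -1.04 to 0.13). Mylip had a fold change of 0.16 (95% interval -0.17 to 0.48), and 0.07 (SE 0.18) by its second probe.

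Efflux and storage showed 0 of 3 genes passing, with 0 at an unadjusted p under 0.05. Abca1, the pump that hands cholesterol to lipid-poor apolipoprotein, was at 3.57, 3.37, 3.03 and 3.35 in Senp2-aKO samples and at 3.46, 3.22, 3.45 and 3.10 in controls, with groups that lay over each other (log2 fold change 0.02, 95% interval -0.30 to 0.35). Abcg1, which loads high density lipoprotein, was at 3.19, 3.59, 3.01 and 2.96 in Senp2-aKO samples against 3.18, 3.31, 3.29 and 3.25 in controls (-0.07, 95% interval -0.40 to 0.26). In percent of control the intervals ran from 81.3 to 127 for Abca1 and from 75.9 to 119.9 for Abcg1. Soat1, which esterifies cholesterol, had an SD of 0.27 in Senp2-aKO samples and 0.49 in controls, and its log2 fold change was 0.20 (95% interval -0.38 to 0.78). Macrophages also express these genes, and the macrophage marker mean, over 11 of 12 markers measured, was 3.22 to 3.43 in Senp2-aKO samples and 2.91 to 3.74 in controls. Single markers differed in direction. Cd163 rose 2.05-fold (limma adjusted p = 0.0192), and at an unadjusted p under 0.05 there were 4 higher, Cd163 among them, and 1 lower, Trem2, with a limma adjusted p of 0.0633 and a log2 difference of -1.71 (SE 0.52). Their part in the efflux values was not tested.

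Of 24 further sterol genes on a separate list, 2 fell and 1 rose, with a median log2 fold change of -0.04, which is near the share of all genes that fell (7.12%) or passed in either direction (14.4%). Erg28, known from yeast as a tether for the enzymes that strip methyl groups from sterols, was at 2.83, 2.72, 2.79 and 2.58 in Senp2-aKO samples and at 3.31, 3.26, 3.29 and 3.15 in controls (log2 fold change -0.52, SE 0.09, limma adjusted p = 0.0120). Tmem97, a sterol-binding protein of the endoplasmic reticulum, was at 0.66, 0.31, 0.88 and 0.91 in Senp2-aKO samples against 1.69, 1.32, 1.92 and 1.32 in controls (-0.87, SE 0.19, adjusted p = 0.0216). In both the groups were clear of each other. Gramd1b, which carries cholesterol from the plasma membrane to the endoplasmic reticulum, rose to 3.43, 3.42, 2.68 and 3.33 in Senp2-aKO samples, against 1.94, 2.24, 1.90 and 1.98 in controls, which is 2.30-fold with a limma adjusted p of 0.00802.

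The fatty acid arm, which shares the SREBPs, was set beside the sterol enzymes. Of its 16 genes 1 fell and 0 rose, near the 7.12% of all genes that fell, with a median log2 fold change of -0.22. The one was Mid1ip1, an activator of acetyl-CoA carboxylase (-0.88, SE 0.19, limma adjusted p = 0.0209). The list mean was 3.58 in aKO 2, below all other arrays, and 4.22 to 4.67 in the other Senp2-aKO samples, which overlapped the controls at 4.34 to 4.57. At an unadjusted p under 0.05, 3 of the 16 were lower and 2 higher. Those that did not pass after adjustment are named here after their values were seen. Scd2, a desaturase gene, was at 6.70, 5.19, 6.69 and 6.81 in Senp2-aKO samples, below all controls at 7.31, 7.31, 7.32 and 7.36 (-0.97, SE 0.34, limma adjusted p = 0.0906), and Mlxipl, which encodes the glucose-responsive factor ChREBP, had a fold change of -0.46 (SE 0.15). Acacb, an acetyl-CoA carboxylase gene, had one of 0.95 (SE 0.29) and Thrsp one of 0.58 (SE 0.17). Relative to controls the enzyme mean of sterol synthesis was lower in all 4 Senp2-aKO samples, by 0.35 to 1.48, whereas that of the fatty acid arm was lower in aKO 2 and aKO 3 and higher in aKO 1 and aKO 4. The difference between the 2 arms was not tested.

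**Figure D4:**
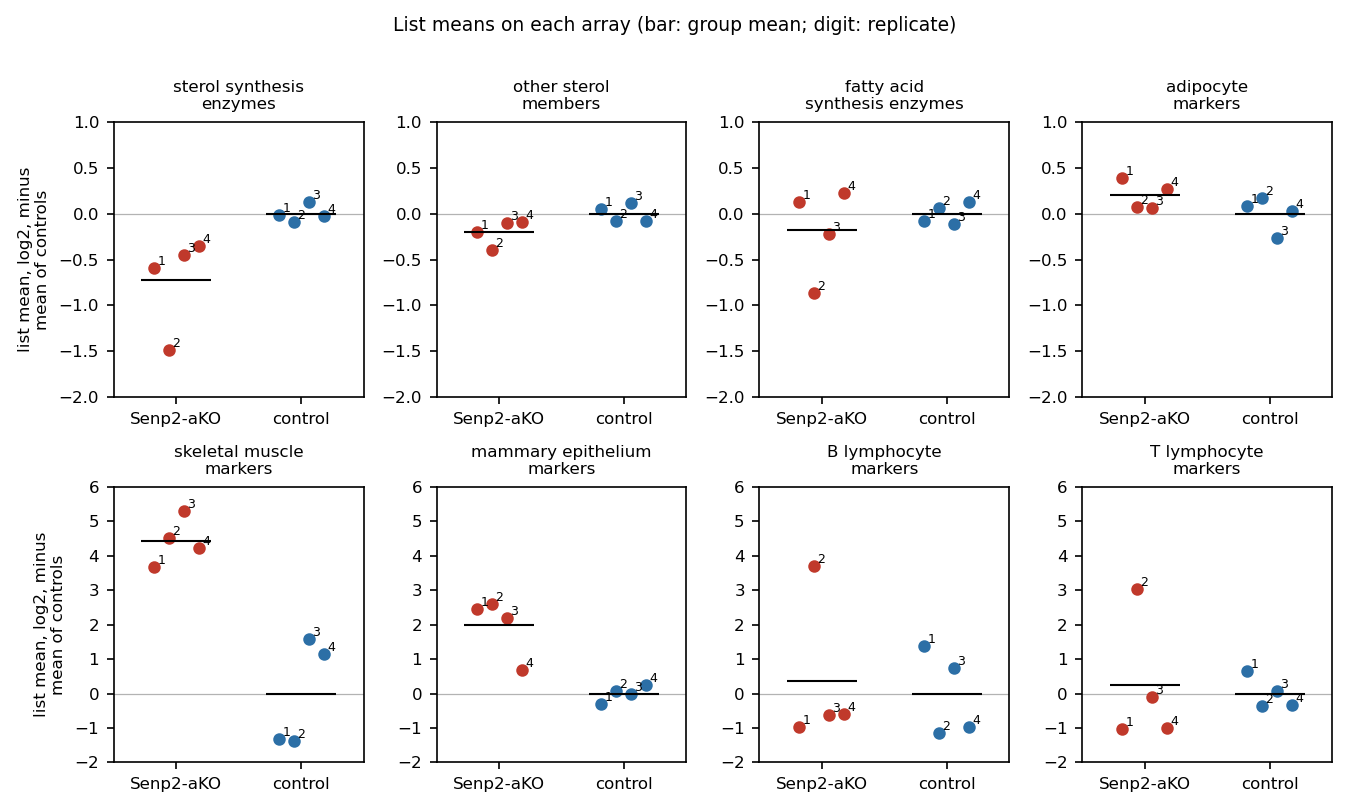
Mean log2 level of 8 gene lists on each array, minus the mean of the 4 controls, with Senp2-aKO samples left of controls, a digit for the replicate and a bar for the group mean. Sterol synthesis is lower in all 4 Senp2-aKO samples and lowest in aKO 2, the muscle and epithelial means are higher in all 4, and the lymphocyte means are highest in aKO 2. The upper and lower rows have different scales.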

How the data were processed

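RNA of 4 Senp2-aKO and 4 control samples was read on 1-colour Agilent arrays. The deposited scanner output holds a background-subtracted intensity per spot and flags for spots above background, made with Agilent Feature Extraction 11.5.1, per the submitters' processing notes. A normalised matrix from the authors was not used, since none of its 8 sample columns matches a label. Each array's log2 intensity was taken relative to its 75th percentile. Control spots and 269 probes with outlier flags were left out, and 30508 probes well above background on at least 4 arrays were kept. Probes were named through RefSeq accessions (27656 of 55681), and each of 14730 genes was read by its kept probe of highest mean.

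The genotypes were compared by lmFit and eBayes of limma 3.58.1 (R 4.3.3) with Benjamini-Hochberg adjustment over all genes, at a threshold of 0.05. The code was tested on simulated data. Lists are described by counts and medians, with no test of their own. The p-values set the difference between genotypes against the spread between samples of a group. They cannot separate genotype from slide row. Motifs were searched with Python 3.11.15 (pandas 2.3.3, matplotlib 3.10.9 for figures). All 31 sterol genes, Senp2 and those genes of the sterol and fatty acid lists that passed were named. Scd2, Mlxipl, Acacb and Thrsp, which did not pass, were named after their values were seen. Some cell type markers are named too. Members and lists were chosen with earlier results of these data known. Alternatives changed the scaling, background correction, filter, probe choice, weights, block, samples, covariates and moderation, and the epithelial covariate was added after the data were seen.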

Additional observations from a re-analysis of the deposited data

Results flagged for a closer look

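Of 70 groups of 4 samples checked for a single array far from the other 3, namely the 31 sterol genes and the means of their 4 roles in each genotype, 4 held one, and chance marks about 1 in 20 groups. Idi1 was at 1.46 in aKO 2, against 2.57 to 2.75 in the other Senp2-aKO samples. Srebf1 was at 0.54 in the same sample, against 1.41 to 1.59 in the other 3. Among controls, Insig1 was at 3.30 in control 4, against 3.59 to 3.63 in the other controls, and Sc5d was at 4.27 in control 4, against 4.38 to 4.40.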

How the results depend on the processing

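The median log2 fold change of the 19 enzymes was negative under every setting run, from -0.99 to -0.20, while the number that passed changed. Of the single-gene values under alternatives, 504 kept direction and side of the threshold, 29 newly passed, 54 no longer passed and 21 turned sign. With quantile scaling 9 enzymes passed, with normexp 9, with array weights 10, without a background filter 6, with the mean of all kept probes 7, and without variance moderation 1. Sensing genes that passed numbered 1 under quantile scaling, normexp, array weights and the B lymphocyte covariate. With array weights 2 uptake genes, 5 fatty acid genes and 3763 genes in all passed, and with the B lymphocyte covariate 3 and 3197. Fatty acid genes that passed numbered 2 under quantile scaling, normexp and the filter on all 8 arrays. With the muscle or the epithelial covariate, 0 enzymes, 0 uptake genes, 0 further sterol genes, 0 fatty acid genes and 0 genes in all passed, and with the epithelial one the enzymes differed from the other members by -0.0780. Leaving out 1 array gave 0 to 9 enzymes, 0 to 1 sensing genes, 1 uptake gene, 0 efflux genes, 2 to 4 further sterol genes, 0 to 4 fatty acid genes, 714 to 2828 genes in all and an enzyme difference of -0.61 to -0.33.

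Replicate numbers did not pair the samples (correlations of same-numbered deviations -0.02, -0.08, 0.14 and 0.11), and with the replicate block 5 enzymes and 1294 genes passed.

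Log2 fold changes turned sign for Pmvk (-0.0948) under quantile scaling, Abca1 (-0.00338) under normexp and Tm7sf2 (0.25) with array weights. With the muscle covariate they turned for Srebf2 (0.0316), Mylip (-0.11) and Soat1 (-0.71). With the epithelial covariate they turned for Hmgcs1 (0.0586), Fdps (0.37), Fdft1 (0.0897), Lss (0.18), Tm7sf2 (0.92), Nsdhl (0.41), Srebf1 (0.29) and Npc2 (0.32). Leaving out 1 array, the range spanned 0 for Pmvk (-0.0221 to 0.27), Tm7sf2 (-0.41 to 0.22), Acat2 (-0.00905 to 0.42), Abca1 (-0.0560 to 0.12) and Abcg1 (-0.20 to 0.00916). The cause was not tested. The number of arrays limits the precision.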
